A study of Mus musculus with 16 samples.

Results

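The Lce3 genes are the injury-related branch of the late cornified envelope family in mouse skin, and the family has 6 members, Lce3a to Lce3f. They were followed through wounds of normal and diabetic mice, with and without topical estrogen. They were found by taking every array probe whose accession maps to a member symbol in RefSeq. Of the 6 members, 5 had a probe, with 1 probe each, and they stood among 20832 gene symbols on the array. Lce3d had no named probe and has no expression value here. The family was selected on earlier readings of the same arrays, so the levels and group differences of its members are given as a description. No p-value is given for a member, and counts of members past a call rule stand only beside the share of all probes past it. Members whose arrays lie apart between groups have no such share beside them, so nothing is read from their number.

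The outer wall of a dying skin cell, the cornified envelope, is built from small proteins that transglutaminases weld to each other beneath the membrane. Many of these proteins, among them loricrin, involucrin, the small proline-rich (Sprr) proteins and the late cornified envelope (Lce) proteins, are encoded side by side in a gene cluster called the epidermal differentiation complex. Lce1 genes belong to the regular programme of the upper epidermis. Lce3 genes are known as the branch that is low in intact skin and switched on by injury and inflammation, and in people a common deletion within this branch is associated with psoriasis.

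RNA came from whole wounds, harvested together with the skin around them, of female mice given 2 full-thickness wounds of 4 mm on the back. The WT group was C57BL/6J of 10 to 12 weeks of age. The db/db group was C57BLKS/J Iar-+Leprdb/+Leprdb of 10 weeks of age, mice that carry Leprdb on both alleles, lack leptin receptor signalling in the whole animal and are diabetic. In the db/db + estrogen group the wound was treated daily with sesame oil containing estradiol benzoate (0.75 μg/g/day), while wounds of the db/db + vehicle group were given only sesame oil. Each group had 2 arrays labelled day 7 and 2 labelled day 14 after wounding, 16 in all, and the labels do not say whether the 2 arrays of a group came from different mice, so their spread may be partly technical. WT and db/db mice differ in strain as well as in diabetes, and these cannot be told apart. The study's printed tables place the 2 days the other way round from the labels of the arrays, and the days used below are those of the labels. No array came from unwounded skin, so the change of the Lce3 genes on injury was not measured.

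On all 16 arrays, 16 of 16 keratinocyte markers, such as Krt5, were well above background. The share of probes well above background ran from 70.1% to 79% per array, with 0 saturated spots. A level is given here as the log2 of a probe's signal over the 75th percentile of its array, so that 0 is a signal equal to that percentile. Levels are set side by side between arrays for 1 probe and never between probes. Probes of close relatives in a family may share signal, and this was not tested. In whole-wound RNA, fewer cells of a type and less RNA per cell cannot be told apart.

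The sequences just before the start sites are shown because the members were high or low together on most arrays, and this is where the genes can be compared base by base. The RefSeq promoter table (GRCm38.p6) held all 6 genes. The 100 bases before each annotated start are printed 5′ to 3′ on the strand of the gene, with the letters NATAAAA and CATGCTTG in capitals, both of which were chosen after the sequences were seen.
Lce3a, chr3:92926231-92926330, minus strand: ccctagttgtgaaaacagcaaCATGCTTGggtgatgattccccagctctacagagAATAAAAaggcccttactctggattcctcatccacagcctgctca
Lce3b, chr3:92932879-92932978, plus strand: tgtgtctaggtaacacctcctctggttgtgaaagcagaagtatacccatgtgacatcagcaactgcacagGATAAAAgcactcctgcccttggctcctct
Lce3c, chr3:92944386-92944485, plus strand: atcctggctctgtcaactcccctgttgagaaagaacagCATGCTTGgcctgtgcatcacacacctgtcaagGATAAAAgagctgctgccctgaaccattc
Lce3d, chr3:92957290-92957389, plus strand: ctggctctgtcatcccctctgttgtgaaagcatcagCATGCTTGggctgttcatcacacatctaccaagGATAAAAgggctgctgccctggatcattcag
Lce3e, chr3:92966961-92967060, plus strand: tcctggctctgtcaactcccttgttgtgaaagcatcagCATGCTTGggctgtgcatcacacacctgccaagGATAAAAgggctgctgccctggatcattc
Lce3f, chr3:92992117-92992216, plus strand: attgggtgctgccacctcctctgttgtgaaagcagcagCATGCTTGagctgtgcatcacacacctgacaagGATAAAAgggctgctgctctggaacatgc

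These windows were alike to unequal degrees. Aligned end to end, the 15 pairs of Lce3 windows shared between 46.3% and 90.3% of their positions, with a median of 67.3%. Lce3c, Lce3d, Lce3e and Lce3f were the close group, with 81.6% to 90.3% between any pair of them, and Lce3a stood apart, with 46.3% to 56.9% to the others. The 84 pairs of an Lce3 window with the window of another Lce gene shared 41.5% to 57.3%, and the 84 pairs with an Sprr gene 40.6% to 56.4%.

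Short motifs were counted on both strands from 250 bases before to 50 after the start. CATGCTTG was in 5 of the 6 Lce3 promoters, all but Lce3b, in 0 of 14 promoters of other Lce genes and 0 of 14 Sprr promoters, and in 0.992% of 32851 promoters. NATAAAA between 20 and 50 bases before the start, on the strand of the gene, was in all 6, but also in 12 of 14 other Lce promoters, in 6 of 14 Sprr promoters and in 1.99% of all promoters. The letters of the AP-1 site, TGAGTCA or TGACTCA, were in none of the 6 and in 0 of 14 other Lce promoters, against 8 of 14 Sprr promoters and 5.2% of all. CACCC, the core letters bound by Klf factors, was in Lce3a and Lce3f and in 57.5% of all. TATAAA was in Lce3e alone, at −243 from the start and on the strand opposite to the gene, and in 13.6% of all. AACCGGTT, a grainyhead site, was in none of the 6 and in 0.146% of all. A match is a match of letters, and its absence says only that the letters are not in this window.

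**Figure D1:**
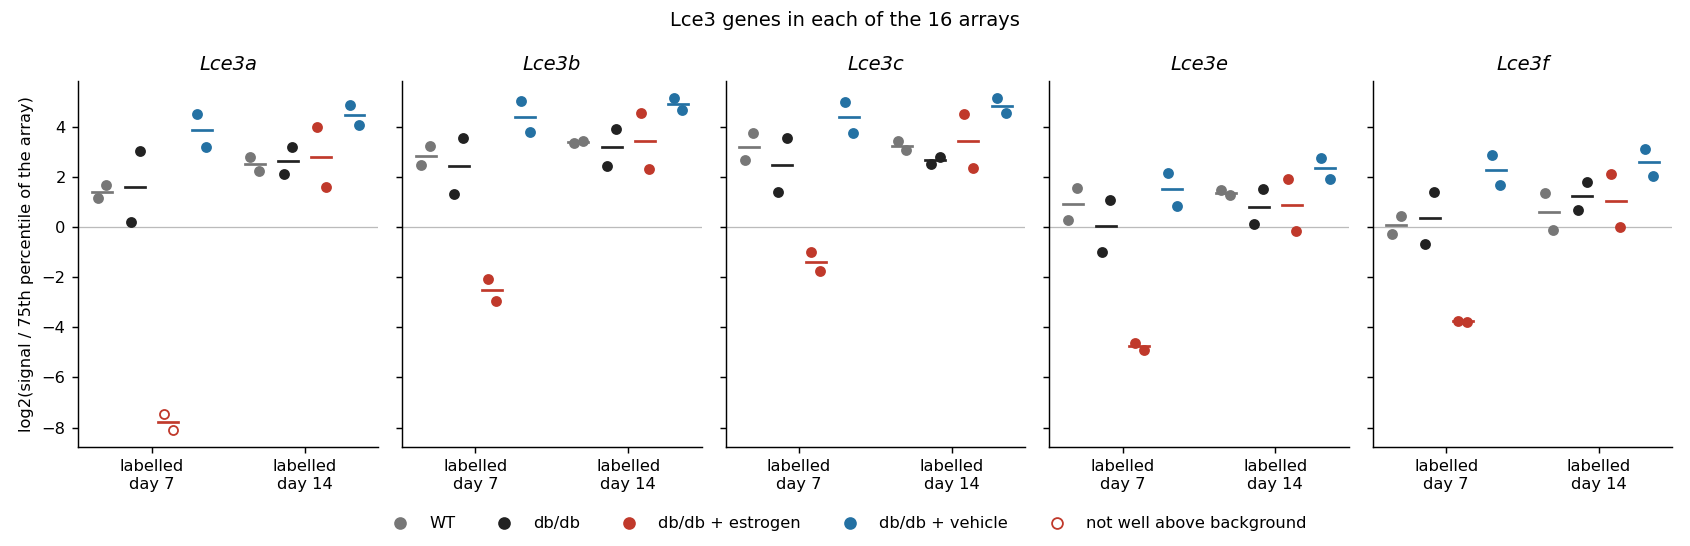
Level of each measured Lce3 gene in the 16 arrays, as log2 of the signal over the 75th percentile of the array (vertical axis), by labelled day and group. Points are arrays, short lines are means of 2 arrays, and open points were not well above background. The db/db + estrogen arrays labelled day 7 lie below every other array in all 5 panels.

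Lce3a is the first gene of the cluster and lies on the opposite strand to the others. For labelled day 7 its log2 level was 1.16 and 1.68 in WT, 0.19 and 3.05 in db/db, 4.52 and 3.20 in db/db + vehicle, and −7.45 and −8.10 in db/db + estrogen. Neither db/db + estrogen array was well above background for Lce3a, while the other 14 arrays were. Among arrays of labelled day 14 its level was 2.82 and 2.23 in WT, 2.14 and 3.18 in db/db, 4.01 and 1.60 in db/db + estrogen, and 4.87 and 4.07 in db/db + vehicle. Both vehicle arrays then lay above all others, and the remaining groups overlapped.

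Lce3b encodes the next envelope protein along the cluster. On labelled day 7 its log2 level was 2.48 and 3.24 in WT, 1.33 and 3.54 in db/db, 5.05 and 3.78 in db/db + vehicle, and −2.07 and −2.93 in db/db + estrogen. The db/db + estrogen arrays were lowest and the vehicle arrays highest, with WT lying within the range of db/db. For labelled day 14 its level was 3.36 and 3.42 in WT, 2.44 and 3.92 in db/db, 4.55 and 2.32 in db/db + estrogen, and 5.17 and 4.69 in db/db + vehicle. The db/db + estrogen group, lowest on labelled day 7, then spanned all the values of WT and db/db.

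Lce3c followed the same order. Among arrays of labelled day 7 its log2 level was 2.68 and 3.74 in WT, 1.42 and 3.55 in db/db, 5.01 and 3.77 in db/db + vehicle, and −0.98 and −1.77 in db/db + estrogen. Its db/db + estrogen arrays were below all 6 other arrays of that day. On labelled day 14 its level was 3.44 and 3.07 in WT, 2.53 and 2.82 in db/db, 4.52 and 2.36 in db/db + estrogen, and 5.14 and 4.55 in db/db + vehicle. WT and db/db did not overlap there, with a gap smaller than the distance between the 2 db/db + estrogen arrays.

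Lce3e and Lce3f close the cluster. For labelled day 7 the log2 level of Lce3e was 0.27 and 1.55 in WT, −1.01 and 1.07 in db/db, 2.18 and 0.83 in db/db + vehicle, and −4.61 and −4.92 in db/db + estrogen. Among arrays of labelled day 14 it was 1.49 and 1.27 in WT, 0.11 and 1.52 in db/db, 1.92 and −0.16 in db/db + estrogen, and 2.78 and 1.94 in db/db + vehicle. Lce3e was the member whose vehicle arrays overlapped WT and db/db on labelled day 7.

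On labelled day 7 the log2 level of Lce3f was −0.29 and 0.44 in WT, −0.66 and 1.42 in db/db, 2.88 and 1.68 in db/db + vehicle, and −3.74 and −3.78 in db/db + estrogen. On labelled day 14 it was 1.37 and −0.13 in WT, 0.68 and 1.79 in db/db, 2.13 and −0.01 in db/db + estrogen, and 3.13 and 2.04 in db/db + vehicle. Ranked by group mean, every one of the 5 genes had db/db + vehicle of labelled day 14 first, db/db + vehicle of labelled day 7 second and db/db + estrogen of labelled day 7 last. Every pair of neighbours in these orders overlapped, except that the last group lay below the group before it for all 5 genes.

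Estrogen against untreated db/db wounds on labelled day 7 gave the lowest Lce3 signals of the series. For Lce3a the signal with estrogen was at least 468-fold lower, a bound, because it was not well above background on either estrogen array. That bound holds for the processed signal with all arrays, as the fitted difference of Lce3a was −6.33 with normexp background correction and −7.97 without db/db replicate 2. Here and below, an SE is that of limma, with the spread pooled over all 8 groups and not taken from the arrays compared alone. The log2 difference between means of 2 arrays was −4.94 ± 0.87 (SE) for Lce3b, −3.86 ± 0.81 for Lce3c, −4.80 ± 0.87 for Lce3e and −4.14 ± 0.88 for Lce3f. These are 30.7-fold, 14.5-fold, 27.8-fold and 17.6-fold lower signals, with Lce3e at −3.56 under normexp. All 5 met the rule of a Benjamini-Hochberg adjusted p of 0.05 and a fold of 2 in limma, which 5.29% of 30190 probes met in either direction and 2.83% met as lower, and the rule with an unadjusted p was met by 10% of probes. Since the members were picked from this contrast, nothing is read from their count. The median of all probes tested was 0.04 and that of the 5 members −4.80. Within the slide that held replicate 1 of every group the members were lower by a median of −3.40, and within the slide of replicate 2 by −5.99.

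Estrogen against vehicle on labelled day 7, the comparison that keeps the oil the same, was wider still. For Lce3a the bound was at least 2210-fold lower with estrogen, and the fitted difference under normexp was −8.47. The log2 differences were −6.92 ± 0.87 for Lce3b (121-fold), −5.77 ± 0.81 for Lce3c (54.5-fold), −6.27 ± 0.87 for Lce3e (77.1-fold) and −6.04 ± 0.88 for Lce3f (65.8-fold). All 5 met the adjusted rule, as did 3.35% of 30155 probes in either direction and 1.65% as lower, while 9.08% met the unadjusted rule. Both slides gave all 5 members as lower, with medians of −6.79 and −5.75.

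Oil alone against untreated db/db wounds on labelled day 7 lay in the other direction, and by less. The log2 difference ranged from 1.47 ± 0.86 for Lce3e to 2.24 ± 0.96 for Lce3a, which is 2.77-fold to 4.72-fold higher, with a median of 1.91 over the 5 genes against 0.04 over all probes. By the unadjusted rule 3 of the 5 were called (Lce3a, Lce3b, Lce3c), where 4.93% of 29787 probes were called in either direction and 2.55% as higher. By the adjusted rule 0 of 5 were called, against 0.255% of probes. The size of the difference depended on which db/db array was used. The median was 0.85 without db/db replicate 1 and 2.97 without db/db replicate 2, and within slides it was 3.59 for the replicates 1 and 0.23 for the replicates 2.

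Between db/db and WT wounds no difference of the Lce3 genes was resolved on either labelled day, which does not show that their levels were equal. For labelled day 7 the log2 difference ran from −0.87 ± 0.87 for Lce3e to 0.30 ± 0.88 for Lce3f, and 0 of 5 were called by either rule in limma, where 14.2% of 29747 probes met the unadjusted and 9.75% the adjusted rule. Among arrays of labelled day 14 it ran from −0.59 ± 0.81 for Lce3c to 0.61 ± 0.88 for Lce3f, with 0 of 5 called against 18% and 14% of 30280 probes. On labelled day 14 the db/db and WT arrays lay on different slides, and with slide as a term in the model the median of the members was −1.57 in place of −0.21, while it was 0.53 without db/db replicate 1. For labelled day 7 the median of −0.43 became 0.68 without db/db replicate 1 and −1.53 without db/db replicate 2.

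On labelled day 14 the estrogen arrays overlapped the db/db arrays for all 5 genes. Against db/db the log2 difference ran from −0.17 ± 0.88 for Lce3f to 0.77 ± 0.81 for Lce3c, with 0 of 5 called by either rule, against 3.99% and 0.156% of 28245 probes. The sign of the median, 0.14, turned to −0.97 without db/db + estrogen replicate 1 and to −0.48 without db/db replicate 1, and it was 1.34 without db/db + estrogen replicate 2, 0.78 without db/db replicate 2 and 0.93 with slide as a term. Within the 1 slide that held both db/db arrays and estrogen replicate 1, all 5 were higher with estrogen, by 0.90 to 1.85 with a median of 1.34. Against vehicle all 5 were lower, by −1.66 ± 0.96 for Lce3a to −1.40 ± 0.81 for Lce3c, with 0 of 5 called by the unadjusted rule, which 1.04% of 28976 probes met, and no probe (0%) met the adjusted rule. Both slides gave all 5 as lower, with medians of −2.19 and −0.86, and the median over the 5 genes was −0.44 without db/db + estrogen replicate 2 and −2.59 without replicate 1, against −1.49 with all arrays.

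Vehicle against db/db on labelled day 14 gave a log2 difference between 1.36 ± 0.88 for Lce3f and 2.17 ± 0.81 for Lce3c, with a median of 1.75. Lce3c was the only one of 5 called by the unadjusted rule, which 7.67% of 29044 probes met in either direction and 5.41% met as higher, and 0 of 5 were called by the adjusted rule, which 0.386% met. Within the 1 slide that held both db/db arrays and vehicle replicate 1, all 5 were higher in vehicle, by a median of 1.99. Without db/db replicate 1 the median was 1.01. The estrogen and vehicle comparisons use the same db/db arrays.

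Between the labelled days, the db/db + estrogen group had the widest differences. Lce3a was at least 1060-fold higher on labelled day 14 than on labelled day 7, a bound that holds for the processed signal only. The other 4 genes were higher by 4.82 to 5.94 on the log2 scale. In WT the differences were 0.05 to 1.11, in db/db 0.19 to 1.04 and in db/db + vehicle 0.31 to 0.86. The 2 labelled days were scanned separately, so day and scan cannot be told apart.

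**Figure D2:**
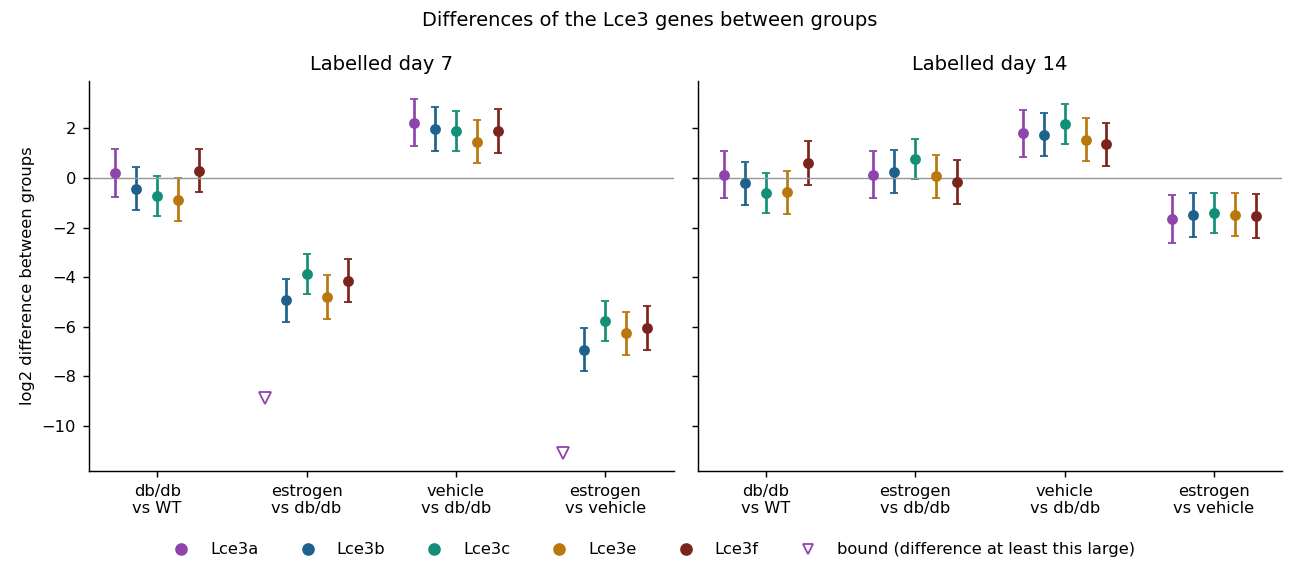
Log2 difference of each measured Lce3 gene in the 4 comparisons on each labelled day (vertical axis), from 2 arrays a group. Points are the limma estimate and bars are 1 standard error, with the spread pooled over all 8 groups. Open triangles are bounds for Lce3a, which was not well above background with estrogen on labelled day 7. In both estrogen comparisons of labelled day 7 all members lie far below 0, with Lce3a (bounds of −8.87 and −11.11) below the other 4.

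The 5 genes also differed together between the 2 arrays of a group. In 7 of the 8 groups the same array was the higher one for all 5 genes, the exception being WT on labelled day 14, where Lce3b differed from the rest by sign with a difference of −0.06. Replicate 1 minus replicate 2 was −2.85 to −2.07 in db/db on labelled day 7, and 2.08 to 2.40 in db/db + estrogen on labelled day 14. The log2 of the summed level of the 16 keratinocyte markers differed with the same sign as the median of the Lce3 genes in 7 of the 8 groups, by −0.73 and 0.95 in these pairs and by −0.80 to 0.61 in the other 5. It differed with the other sign in db/db + vehicle on labelled day 7, where the Lce3 genes gave 1.19 to 1.35 and the marker sum −0.41. Its part in the spread was not tested.

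Keratinocyte markers did not follow the Lce3 genes into the low estrogen arrays. The log2 of their summed level was 9.34 and 8.96 with estrogen on labelled day 7, above the 7.97 and 8.70 of db/db, while the mean level of the 5 Lce3 genes was −3.77 and −4.30 against 0.26 and 2.53. That mean includes Lce3a, which has no measured level on the estrogen arrays and lowers it there. By the adjusted rule 4 of 16 keratinocyte markers rose with estrogen and 0 fell. Collagen XVII, Col17a1, which anchors basal cells, was higher by 2.07 (SE 0.31, limma adjusted p = 0.00471), and the desmosomal cadherin Dsc3 by 1.82 (SE 0.30, limma adjusted p = 0.00728).

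**Figure D3:**
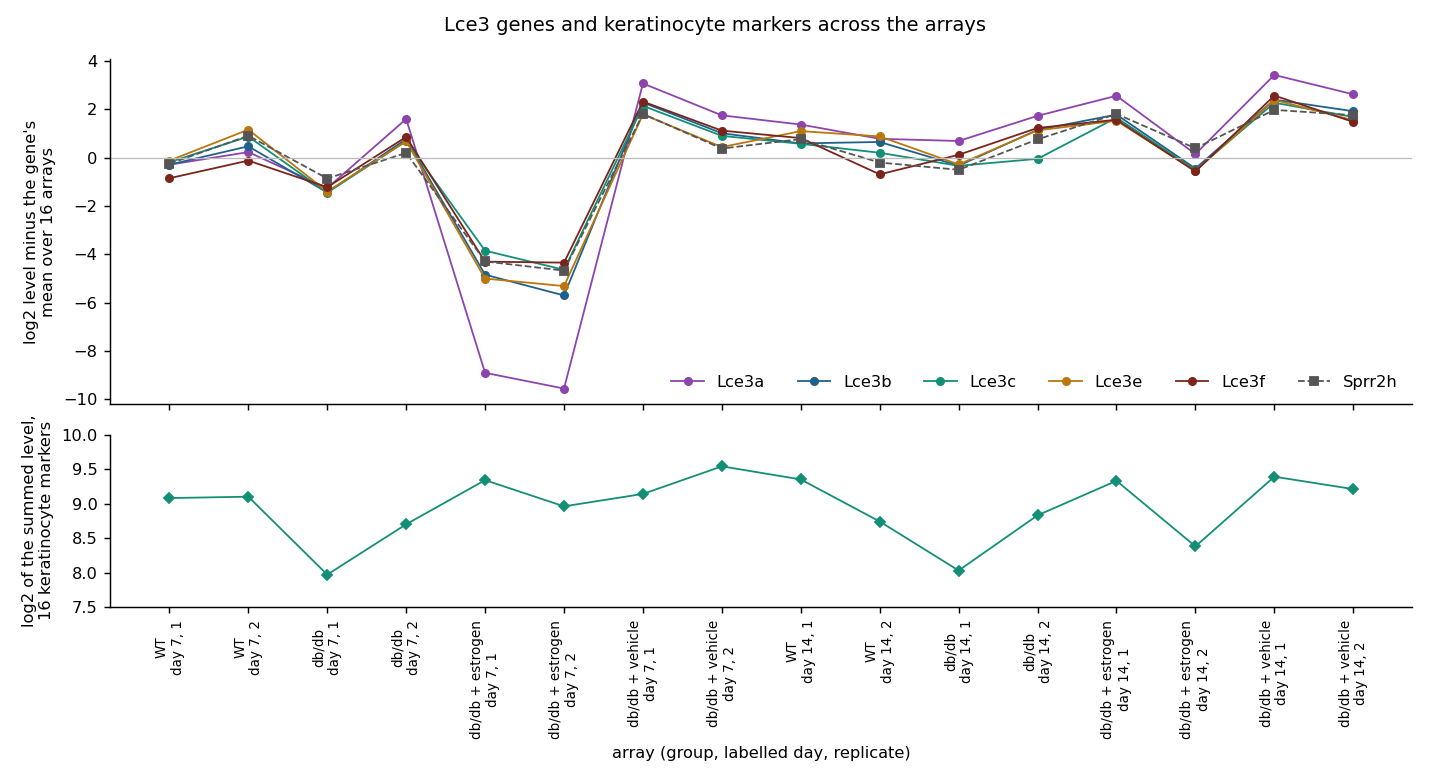
Upper panel, level of the 5 measured Lce3 genes and of Sprr2h in each of the 16 arrays, centred on the mean of each gene (log2 units). Lower panel, log2 of the summed level of 16 keratinocyte markers on the same arrays, with lines only to guide the eye. The Lce3 curves drop together in the db/db + estrogen arrays labelled day 7, where the marker sum is 9.34 and 8.96.

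Genes with the most similar course over the 16 arrays were sought among 16921 symbols, by the mean absolute difference between centred log2 levels. For Lce3b, Lce3c, Lce3e and Lce3f the single nearest gene was another Lce3 gene, as Lce3b and Lce3e differed by 0.26 log2 units per array, Lce3b and Lce3c by 0.32 and Lce3b and Lce3f by 0.41. The nearest genes outside the family were mostly Sprr2 genes. Sprr2h was among the closest 3 outsiders for 4 members, at 0.46 for Lce3b, 0.34 for Lce3c, 0.42 for Lce3e and 0.50 for Lce3f. For Lce3a these were Sprr2i (0.47), Sprr2f (0.52) and Sprr2g (0.64), and Lce3b, at 1.02, was the 7th gene in its order. Lce3a, Sprr2i and Sprr2f were not well above background on the 2 db/db + estrogen arrays of labelled day 7, so the distances and order for Lce3a rest partly on signals with no measured level. Sprr2h lay nearer to Lce3c than Lce3e did, and Sprr2h and Sprr1b lay nearer to Lce3e than Lce3f did. Other outsiders were Csta3 (a cystatin-family gene) and Sprr2d for Lce3b, Fxyd4 (an ion-pump regulator) and the protease gene Klk13 for Lce3c, Sprr1b and Gm5478 for Lce3e, and Sprr2d and the protease gene Prss22 for Lce3f, at 0.43 to 0.60. These likenesses rest on the same 16 arrays. All of these genes were lowest on the 2 db/db + estrogen arrays of labelled day 7, and how far the likenesses rest on those arrays was not tested.

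The Sprr genes, which encode cross-bridging proteins of the envelope, were the list most like the members. Of 13 tested, 10 fell with estrogen against db/db on labelled day 7 by the adjusted rule, with a median log2 difference of −5.39 over the list, and 10 of 13 fell against vehicle, with a median of −8.34. Sprr2i was 1.79 and 2.60 in db/db and not well above background with estrogen, at least 686-fold lower. Sprr2f was likewise at least 341-fold lower, and both bounds hold for the processed signal only. Sprr2b, Sprr2j-ps and Sprr2k were also not well above background with estrogen. The tests and differences of these genes on labelled day 7 rest partly on signals with no measured level. With vehicle against db/db 0 of 13 met the adjusted rule in limma and 6 rose by the unadjusted rule. Among arrays of labelled day 14 estrogen and db/db differed in 1 of 13 by the unadjusted rule and in 0 by the adjusted rule.

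The other Lce genes with a probe were Lce1 genes and Crct1. Of 14 tested, 0 were called in any of the 8 comparisons by limma, and at an unadjusted p of 0.05 with no threshold on the fold also 0. With estrogen against db/db on labelled day 7 they lay between 0.18 and 1.88, with a median of 0.80, where Lce3a was at the bound of −8.87 and the other 4 members lay between −4.94 and −3.86. With vehicle against db/db on the same day they lay on the same side as the members, between 0.91 and 1.79 with a median of 1.12, against a median of 1.91 for Lce3. With estrogen against vehicle on labelled day 14 they were also on the same side, between −0.52 and −0.10. The genes that flank the Lce3 row on the chromosome were 2310050C09Rik on the side of Lce3a and Crct1 on the side of Lce3f. 2310050C09Rik was 2.69 and 4.14 in db/db and 4.99 and 4.17 with estrogen, a difference of 1.16 ± 0.90 (SE). Crct1, a cysteine-rich relative of the Lce proteins, was 3.65 and 5.76 in db/db and 5.28 and 4.49 with estrogen, a difference of 0.18 ± 0.81 (SE). Neither gene was called in any of the 8 comparisons.

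Along the whole epidermal differentiation complex, 101 annotated genes lie from S100a1 to S100a10, of which 64 had a probe, 59 of them not Lce3 genes. Of all probes, 10% met the unadjusted rule and 5.29% the adjusted rule with estrogen against db/db on labelled day 7. There 2 of 57 tested neighbours rose and 18 fell by the unadjusted rule, and 1 rose and 14 fell by the adjusted rule. Of those 14, 10 were Sprr genes and 3 were S100a7a, S100a8 and S100a9. S100a3, a hair protein, was the neighbour that rose. Against vehicle the same day 1 rose and 19 fell by the unadjusted rule, which 9.08% of all probes met. For vehicle against db/db 11 rose and 0 fell by the unadjusted rule, which 4.93% of all probes met, and 0 were called by the adjusted rule. The count was 2 without db/db replicate 1 and 4 without vehicle replicate 1. For db/db against WT 1 of 57 rose and 7 fell by the unadjusted rule on labelled day 7. That is near the 14.2% of all probes called, so nothing is read from it. On labelled day 14 the counts by the unadjusted rule were 1 for db/db against WT, 1 for estrogen against db/db, 8 for vehicle against db/db and 1 for estrogen against vehicle, and 0 in all of these by the adjusted rule in limma. The tested neighbours numbered 56, 56, 57 and 57 in that order, and 18%, 3.99%, 7.67% and 1.04% of all probes met the unadjusted rule.

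**Figure D4:**
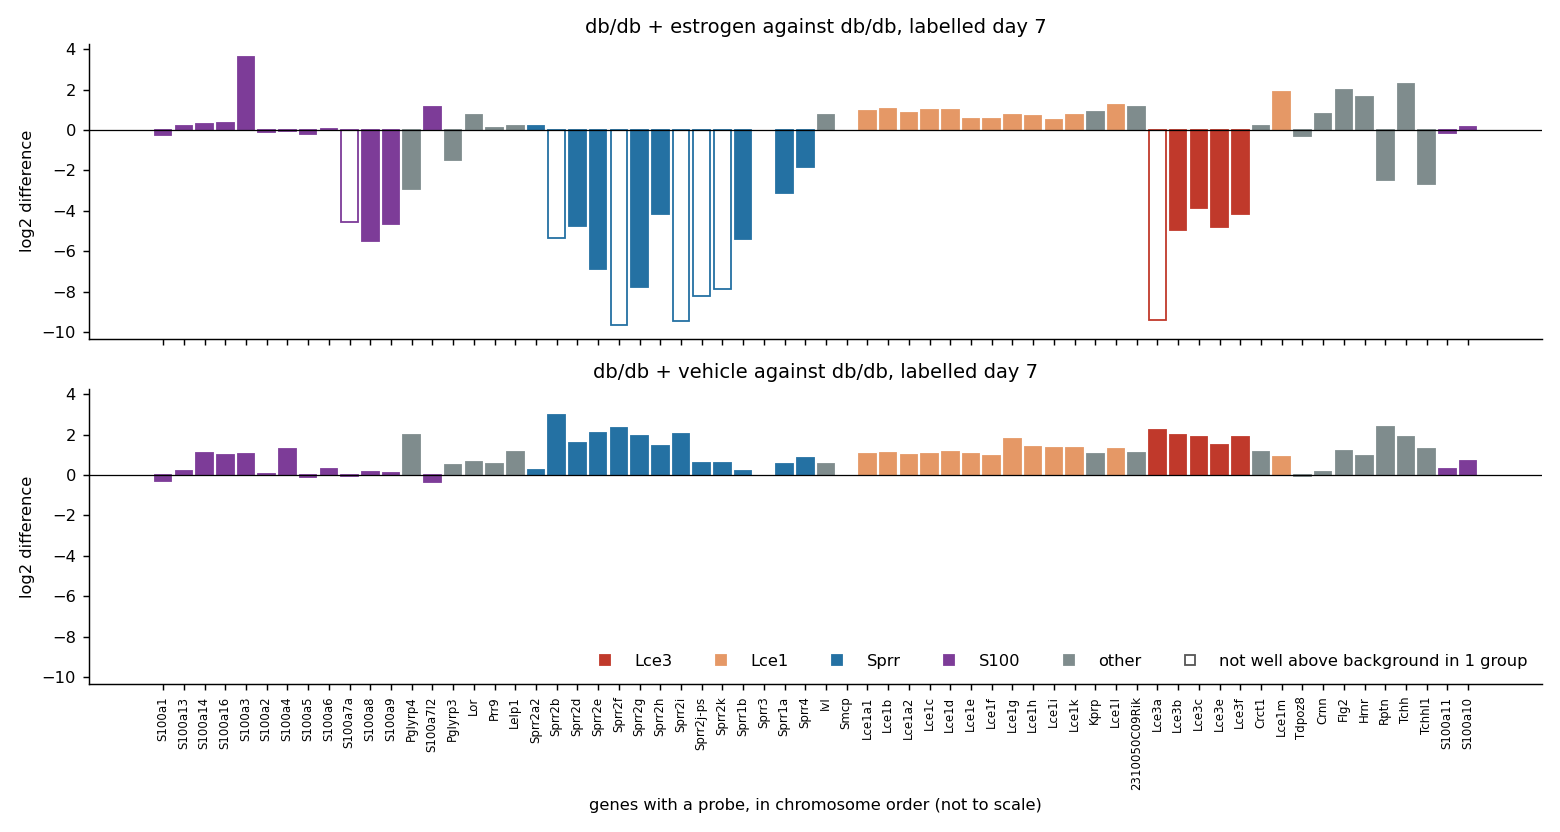
Log2 difference of every tested gene of the epidermal differentiation complex on labelled day 7, in chromosome order (horizontal axis, not to scale), for estrogen against db/db (upper panel) and vehicle against db/db (lower panel). Open bars mark genes not well above background in 1 of the groups. In the upper panel Lce3 and most Sprr genes lie far below 0 and every Lce1 gene lies above it, whereas in the lower panel both Lce branches lie above 0.

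The granular layer is where the envelope is assembled. Of 11 of its genes tested with estrogen on labelled day 7, 0 met the adjusted rule against db/db in limma and by the unadjusted rule 1 was higher (Hrnr) and 1 lower (Rptn). Against vehicle 1 fell by the adjusted rule, repetin (Rptn), with a difference of −4.86 (SE 0.87, limma adjusted p = 0.0178). Of 11 genes in the cross-linking list, 1 fell against db/db by the adjusted rule, the stefin Stfa1, with a difference of −1.84 (SE 0.26, limma adjusted p = 0.00378). Stefins are protease inhibitors and not cross-linking enzymes, and the part of neutrophils in their levels was not tested. Against vehicle 3 fell by the adjusted rule (Stfa1, Stfa3 and Cnfn) and 7 by the unadjusted rule. Tgm1, a transglutaminase that cross-links the envelope, was among the 7, at −1.93 (SE 0.55, limma adjusted p = 0.0782).

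Genes of activated keratinocytes, as at a wound edge, were lower in the same arrays as the members. Of 12 tested, 8 fell with estrogen against db/db by the adjusted rule, and 10 of 12 fell against vehicle. The antimicrobial peptide Defb3 was at least 19-fold lower than in db/db, a bound. S100a8 was 7.14 and 7.46 in db/db and 0.92 and 2.69 with estrogen (SE 0.45, limma adjusted p = 0.000378). S100a8 and S100a9 are also neutrophil genes. Vehicle against db/db gave 2 higher and 1 lower by the unadjusted rule and 0 by the adjusted rule.

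Among 17 cytokine and growth factor genes known to act on keratinocytes, 4 fell with estrogen against db/db by the adjusted rule and 0 rose. Il1b was 3.46 and 3.95 in db/db and −4.55 and −0.99 with estrogen (SE 1.00, limma adjusted p = 0.00508). Il1a differed by −3.44 (SE 0.89, limma adjusted p = 0.0482), and Tnf and Osm were the other 2. None of the Il17 or Il22 genes was among those 4. Of 18 transcription regulators of the epidermis, 1 rose against db/db, Trp63 (p63), by 1.42 (SE 0.37, limma adjusted p = 0.0496), and 0 fell. By the unadjusted rule 2 regulators fell, Nfkbiz and Prdm1.

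The cell type lists differed between the same arrays. The log2 of the summed level of 10 neutrophil markers was 2.81 to 4.70 with estrogen on labelled day 7 and 8.68 to 8.82 in db/db, and 10 of 10 fell by the adjusted rule, with the granule genes Ngp (−9.68, SE 1.18, limma adjusted p = 0.00196) and Ltf (−8.82, SE 0.74, limma adjusted p = 0.000378) at the largest differences. On the vehicle arrays of that day the neutrophil sum was 8.66 to 8.74, but such a sum rests mostly on its brightest markers. S100a8 and S100a9 differed by 0.16 and 0.12 between vehicle and db/db. The median difference over the 10 markers was −3.02 and the lowest −7.04, with 3 of 10 lower than in db/db by the adjusted rule. The summed level of 11 hair follicle markers was 3.35 to 3.82 with estrogen and −1.71 to −1.35 in db/db, and 9 of 11 rose. Among them were the inner root sheath keratins Krt25 (at least 388-fold, a bound for the processed signal only) and Krt71 (9.21, SE 1.60, limma adjusted p = 0.00882). In WT of labelled day 7 that sum was 1.07 and 5.05. In the fibroblast, adipocyte and skeletal muscle lists 0 of 8 markers each met the adjusted rule with estrogen against db/db in limma, with 1 adipocyte marker (Lipe) called by the unadjusted rule. The part of neutrophils, hair follicles or of skin around the wound in the Lce3 levels was not tested.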

How the data were processed

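Of 16 arrays in 8 groups, named by the labels, the authors deposited for every spot a processed intensity, made with Agilent Feature Extraction 11.0.1.1 by background subtraction and spatial detrending, along with flags, and with GeneSpring 12.1 a table holding a ratio per probe to the 75th percentile of the array. Outlier spots were left out, spots of a probe averaged, and signals expressed as log2 relative to the 75th percentile of the array's probes. Of 39429 probes, 27427 were named through RefSeq. A gene outside the family was read through its brightest probe. limma 3.58.1 in R 4.3.3 fitted 1 coefficient per group. A probe was tested if well above background on both arrays of either group. Calls needed a fold of 2 and limma's p at a threshold of 0.05, unadjusted or Benjamini-Hochberg adjusted over all probes tested. A bound sets the brighter group against the probe's own signal or the dimmest signal well above background on the array, whichever is higher. That dimmest signal is the lowest of any probe, so a bound holds only for the processed signal and may be too large. The members and lists were chosen with earlier results of these data known. From each list the text names the 2 largest adjusted calls of a comparison described, and the neighbours of the Lce3 row. S100a3, S100a7a, S100a9, Hrnr, Cnfn, Tgm1, Tnf, Osm, Nfkbiz, Prdm1 and Lipe were named after their values were seen. Genes of similar course were the 3 nearest by mean absolute difference of centred levels. Alternatives were normexp background correction, quantile normalization, the deposited ratio table, a floor, filter, array set, slide or replicate block, threshold, and leaving out each array. Only the limma fit and the adjusted call were tested on simulated data, with independent noise. The precision is limited by 2 arrays per group.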

Additional observations from a re-analysis of the deposited data

Results flagged for a closer look

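On labelled day 7, 4 of the 5 measured Lce3 genes lay below both db/db arrays on both estrogen arrays and above both db/db arrays on both vehicle arrays. The difference between the estrogen effect and the vehicle effect was −11.64 for Lce3a, −6.92 for Lce3b, −5.77 for Lce3c and −6.04 for Lce3f on the log2 scale, of which the value for Lce3a is a fitted one with no measured level under estrogen, its bound being −11.11. The db/db arrays cancel in it, so it is the estrogen against vehicle difference of the report. Since the family was chosen on these arrays it is a description, and no separate test was made. Nothing is read from the 4 of 5, as no share of all probes with such a split stands beside it.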

How the results depend on the processing

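No alternative turned the direction of a called Lce3 difference. The median over the 5 genes stayed within the spread between replicates in 78 of 80 alternatives. These include the replicate block and, on labelled day 7, the slide block, which could not move a group difference, as each group was split evenly over them. Leaving out 1 of 2 arrays moves a group mean by less than the SD of that group. For db/db against WT on labelled day 14 the median was −1.57 with slide as a block and −0.73 to 0.53 on leaving out 1 array, against −0.21. With estrogen against db/db on labelled day 7 it ran from −5.84 to −3.76. Of 400 values of single members 23 moved by more than that spread, among them Lce3a (−6.33 and −8.47) and Lce3e (−3.56 and −5.09) under normexp in the estrogen comparisons of labelled day 7. Each member has 1 probe, so averaging probes changed nothing.

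For counts of neighbouring genes called, the values were as follows. With the adjusted rule the count was 2 (from 8) for db/db against WT and 0 (from 11) for vehicle against db/db on labelled day 7, and 0 in the 4 comparisons of labelled day 14. With a filter on all 4 arrays it was 13 (from 20) in both estrogen comparisons of labelled day 7. On labelled day 14, db/db against WT gave 2 in a fit of 4 arrays and 2 with slide as a block, estrogen against db/db gave 2 with slide as a block and 3 without a fold threshold, vehicle against db/db gave 14 (from 8) in a fit of 4 arrays, and estrogen against vehicle gave 0 (from 1) with normexp, the floor, the filter on all 4 arrays, the fit of 4 arrays and the replicate block.

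On leaving out 1 array the count ran from 3 to 10 for db/db against WT and 2 to 14 for vehicle against db/db on labelled day 7, and on labelled day 14 from 0 to 4, 0 to 6 (estrogen against db/db), 2 to 8 (vehicle against db/db; 3 without db/db replicate 1 and 3 without vehicle replicate 2, 2 without vehicle replicate 1) and 0 to 6 (estrogen against vehicle). The cause was not tested.

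On labelled day 7 replicate 1 of every group lay on 1 slide and replicate 2 on another, so there the number also names the slide, while on labelled day 14 it does not. The labels pair nothing by it. Deviations of same-numbered arrays correlated between −0.31 and 0.39 on labelled day 7 and between −0.45 and 0.32 on labelled day 14. Every group held 1 array of each replicate number, so the replicate block could not move the median of the Lce3 genes. With it, 19 neighbours were called for estrogen against db/db on labelled day 7 in place of 20. With 2 arrays a group, differences of the size seen between db/db and WT could not be resolved, and the level of Lce3a with estrogen on labelled day 7 is only a bound.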
